A study of Arabidopsis thaliana with 3 samples.

Results

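The D-type cyclins of Arabidopsis thaliana were described in whole 9-day-old seedlings. The set comprised the 10 loci CYCD1;1 (AT1G70210), CYCD2;1 (AT2G22490), CYCD3;1 (AT4G34160), CYCD3;2 (AT5G67260), CYCD3;3 (AT3G50070), CYCD4;1 (AT5G65420), CYCD4;2 (AT5G10440), CYCD5;1 (AT4G37630), CYCD6;1 (AT4G03270) and CYCD7;1 (AT5G02110), chosen by locus identifier, out of 27374 loci with values. All 10 were listed in each of the 3 libraries. The libraries form 1 group of wild-type plants of the accession Col-0, grown on plates of MS medium at 23 °C, where a day had 16 h of light. RNA of whole plants was depleted of ribosomal RNA and sequenced from strand-specific libraries. The series has no mutant or treated sample in what was analysed here, so genes are compared within libraries, and libraries with one another. Whether each library came from its own culture of plants is not in the labels, and each SD measures the spread between these 3 libraries. The p-values combine that spread with the spread of the other genes tested.

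A D-type cyclin is the regulatory subunit of a cyclin-dependent kinase. In plants it binds mainly CDC2, usually named CDKA;1, and the kinase phosphorylates the retinoblastoma-related protein RBR1, which holds E2F transcription factors inactive. Release of E2F turns on genes of DNA replication, so that the cell passes from G1 into S phase. D-type cyclin genes are known to respond to sucrose, cytokinin and developmental regulators, and several act in defined cell lineages of the root or of stomata. KRP and SIAMESE-type proteins inhibit these kinases.

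Many D-type cyclins contact RBR1 through a short motif named LxCxE near the start of the protein. The first 90 coding bases of each gene are shown because they separate the members with this exact motif from those without it. They were read from the RefSeq annotation of TAIR10.1, in which the first forms of the 3 CYCD3 genes and of AT5G02110 have 4 exons, that of AT4G37630 has 5 and those of the other 5 genes have 6. Each stretch lies in the first exon. Capitals mark 5 codons that spell the motif, where the first codon is CTN, TTA or TTG, the third is TGT or TGC and the fifth is GAA or GAG.
AT4G34160 (chr4:16357903-16357992, plus strand): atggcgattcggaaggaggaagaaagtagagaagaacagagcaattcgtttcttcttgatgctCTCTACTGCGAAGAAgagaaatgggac
AT5G67260 (chr5:26836313-26836402, plus strand): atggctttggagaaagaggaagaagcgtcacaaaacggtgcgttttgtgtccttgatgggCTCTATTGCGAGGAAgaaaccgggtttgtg
AT3G50070 (chr3:18566580-18566669, minus strand): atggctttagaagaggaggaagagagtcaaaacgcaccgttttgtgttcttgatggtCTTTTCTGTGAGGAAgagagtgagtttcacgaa
AT1G70210 (chr1:26440015-26440104, plus strand): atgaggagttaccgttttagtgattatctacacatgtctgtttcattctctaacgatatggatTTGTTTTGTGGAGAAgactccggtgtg
AT2G22490 (chr2:9555784-9555873, minus strand): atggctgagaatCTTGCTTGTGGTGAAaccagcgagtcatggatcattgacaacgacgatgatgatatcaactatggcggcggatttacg
AT5G65420 (chr5:26143661-26143750, minus strand): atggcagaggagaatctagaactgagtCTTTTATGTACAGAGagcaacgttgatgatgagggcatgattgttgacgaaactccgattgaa
AT5G02110 (chr5:417087-417176, plus strand): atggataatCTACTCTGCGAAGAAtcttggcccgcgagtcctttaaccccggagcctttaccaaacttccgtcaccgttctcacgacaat
AT5G10440 (chr5:3282253-3282342, minus strand): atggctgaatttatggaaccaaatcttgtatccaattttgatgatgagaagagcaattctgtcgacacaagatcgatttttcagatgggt
AT4G37630 (chr4:17679497-17679586, plus strand): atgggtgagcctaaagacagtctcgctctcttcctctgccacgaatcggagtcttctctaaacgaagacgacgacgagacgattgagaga
AT4G03270 (chr4:1433602-1433691, minus strand): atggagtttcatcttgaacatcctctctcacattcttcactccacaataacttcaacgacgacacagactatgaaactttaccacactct

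The motif was searched in frame on the coding strand only, over the first 30 codons. It was found in 7 of the 10 genes, starting at codon 4 in AT5G02110, 5 in AT2G22490, 10 in AT5G65420, 20 in AT3G50070, 21 in AT5G67260 and 22 in AT4G34160 and AT1G70210, counted from the start codon. Among 27354 nuclear protein-coding genes, 59 (0.216%) held it in the same window. AT5G10440, AT4G37630 and AT4G03270 did not hold these codons anywhere in their coding sequence, and 3.76% of all genes held them somewhere in theirs. In AT4G37630 the stretch ttcctctgccacgaa, in frame within the window, departs from the motif only in its first codon. Whether a member without the exact codons contacts RBR1 was not tested. The coding sequences of AT5G65420 and AT5G10440 were 79.0% identical over 882 aligned bases and those of AT5G67260 and AT3G50070 78.7% over 1055, the highest values of 45 pairs. AT4G37630 and AT4G03270 were 58.0% identical. No stretch of at least 50 bases elsewhere in the genome matched the transcript of any member at 90% identity or more. The best such match was 84.5% over 71 bases, between AT5G65420 and AT5G10440.

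Values are FPKM, fragments scaled by transcript length and by the number of fragments in the library, summed over the transcripts of a locus, so levels of different genes are compared per length. Read depth is not given in the sources used here. Over all transcripts the FPKM summed to 2064646, 2000114 and 1957870 in libraries 1, 2 and 3, and nuclear loci held 29.4% to 30.8% of it. Pearson's r between libraries was 0.990 to 0.991 across 17678 nuclear genes whose mean reached 1 FPKM, which are not independent replicates, and no 2 libraries had an identical value in any of the 21305 to 21482 transcripts compared. Green tissue and root markers were both present, with CAB1 (a chlorophyll-binding antenna protein) at 14284 ± 737 FPKM and PYK10 (a root glucosidase) at 1009 ± 52.9 (SD, n = 3). The other root markers were much lower, the PHT1 gene AT5G43350 at 8.28 ± 1.49 FPKM and SHR at 7.06 ± 0.718. The shoot meristem markers were split: WUS and CLV3 were listed at 0 in all 3 libraries, while STM had 4.64 ± 0.385 FPKM and CLV1 31.9 ± 0.599. In whole seedlings, fewer cells of a type and less RNA per cell cannot be told apart.

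The CYCD3 genes and CYCD1;1 (AT1G70210) led the family. CYCD3;2 (AT5G67260) was the most abundant member, AT1G70210 and CYCD3;1 (AT4G34160) followed, then CYCD3;3 (AT3G50070) and CYCD2;1 (AT2G22490), and the other 5 members were each below 3 FPKM. Each library gave 1 FPKM or more for 9 of the 10, as for 63.2% of all 27164 nuclear genes. The summed FPKM of the family was 96.8, 99.9 and 96.2 in libraries 1, 2 and 3. The 5 highest members made up 92.1% ± 0.628 of it and the 5 lowest 7.90% ± 0.628 (SD, n = 3). The 7 members with LxCxE codons held 94.4% ± 0.323 and the 3 without them 5.61% ± 0.323, but CYCD7;1 (AT5G02110), which has the codons, was the lowest member of all.

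**Figure D1:**
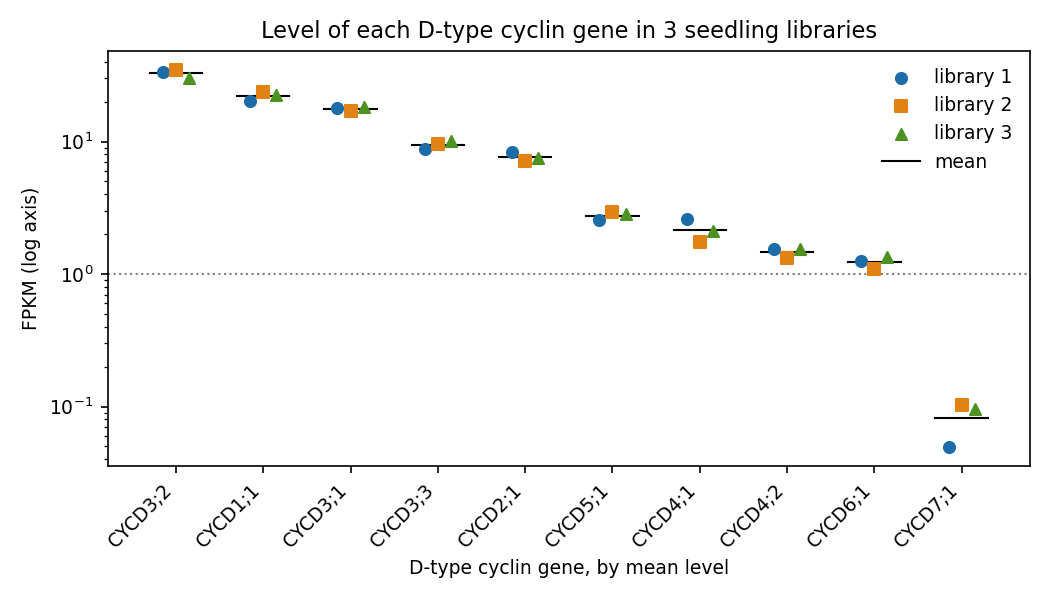
FPKM of each D-type cyclin gene (log axis) in the 3 wild-type libraries, with the genes ordered by their mean. Points are libraries, bars are means and the dotted line is at 1 FPKM, and CYCD3;2 (AT5G67260) lies highest at a mean of 32.9 and CYCD7;1 (AT5G02110) lies at a mean of 0.0824, far under the next gene.

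The 3 CYCD3 genes are known to act together in shoots, where they keep cells of young organs dividing and delay endoreduplication, and they respond to cytokinin. CYCD3;2 (AT5G67260) had 33.6, 34.9 and 30.1 FPKM in libraries 1, 2 and 3, a mean of 32.9 ± 2.51 (SD, n = 3) and stood at the percentile rank 89.8 of the protein-coding genes in the nucleus. CYCD3;1 (AT4G34160), the best studied of the family, had 17.8, 17.2 and 18.2 FPKM, a mean of 17.7 ± 0.543. CYCD3;3 (AT3G50070) had 8.85, 9.58 and 10.04 FPKM, a mean of 9.49 ± 0.599. The values of the 3 genes did not overlap in any pair of libraries. Together they made up 62.3%, 61.8% and 60.7% of the FPKM of the family. AT5G67260 alone contributed 33.7% ± 2.09, and library 3 was its lowest while it was the highest library of both AT4G34160 and AT3G50070.

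CYCD1;1 (AT1G70210), known to act early in the cell cycle when growth resumes, for instance in germinating seeds, had 20.2, 23.9 and 22.4 FPKM and a mean of 22.1 ± 1.85. Its lowest library lay above the highest of AT4G34160. CYCD2;1 (AT2G22490), a member whose transcript is known to respond to sucrose, had 8.29, 7.15 and 7.50 FPKM and a mean of 7.65 ± 0.582, at a percentile rank of 62.9. Its highest library was below the lowest of AT3G50070.

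CYCD4;1 (AT5G65420) is known from divisions of the pericycle that form lateral roots, and CYCD4;2 (AT5G10440) from stomatal lineage divisions in the hypocotyl. AT5G65420 had 2.60, 1.74 and 2.11 FPKM, a mean of 2.15 ± 0.432, and AT5G10440 had 1.55, 1.31 and 1.56, a mean of 1.48 ± 0.140. AT5G65420 was the member above 1 FPKM with the largest relative spread, a coefficient of variation of 20.1%, with library 1 high and library 2 low. AT5G10440 was lower than AT5G65420 in each library.

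CYCD5;1 (AT4G37630), which has been linked to natural variation in endoreduplication and to the stomatal lineage, had 2.54, 2.92 and 2.83 FPKM, with a mean of 2.76 ± 0.200. CYCD6;1 (AT4G03270), known for the formative division that gives rise to root cortex and endodermis, had 1.26, 1.09 and 1.35 FPKM, with a mean of 1.23 ± 0.134 and a percentile rank of 35.6. On the opposite strand, exons of AT4G03260, at 33.7 FPKM, cover 24.4% of the AT4G03270 transcript. The libraries are strand-specific, but whether the authors' estimate used strand is not given in the sources used here, so the part of AT4G03260 in the value of AT4G03270 was not tested. An overlap on the same strand, of 40 bases with AT4G34150 at 54.9 FPKM, touches 2.13% of the AT4G34160 transcript.

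CYCD7;1 (AT5G02110) is known from the guard mother cell, whose single symmetric division forms a stoma. It had 0.0493, 0.102 and 0.0955 FPKM, below the other members in each library by at least 10.6 times. Genes with 1 listed transcript whose length in TAIR10.1 was within 10% of that of AT5G02110 numbered 2806. Of their values, 511, 499 and 487 were listed at 0 in libraries 1, 2 and 3, and 68 of 2295, 160 of 2307 and 156 of 2319 non-zero ones lay below AT5G02110. AT5G02110 thus had a non-zero value in all 3 libraries, close to the bottom of what these files list for a transcript of its length.

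The order of the levels was the same in all 3 libraries for most neighbours. The spread between libraries does not hold an error of a gene, such as in its annotated length, that repeats in each library. Small steps between genes are to be read with that limit. CYCD3;2 (AT5G67260) exceeded CYCD1;1 (AT1G70210) by 1.49 times on average (1.34 to 1.67 over the libraries), and AT1G70210 exceeded CYCD3;1 (AT4G34160) by 1.25 times (1.13 to 1.39). AT4G34160 exceeded CYCD3;3 (AT3G50070) by 1.87 times and AT3G50070 exceeded CYCD2;1 (AT2G22490) by 1.25 times, with a lowest ratio of 1.07 in library 1. The largest steps were from AT2G22490 to CYCD5;1 (AT4G37630), at 2.79 times, and from CYCD6;1 (AT4G03270) to CYCD7;1 (AT5G02110), at 16.8 times (10.6 to 25.5). AT4G37630 and CYCD4;1 (AT5G65420) did not differ beyond their spread: on the log2(FPKM + 1) scale, on which a fold between low genes is understated, AT4G37630 minus AT5G65420 was 0.26 ± 0.27 (SD, n = 3), positive in 2 of 3 libraries. The values of CYCD4;2 (AT5G10440) and AT4G03270 overlapped between libraries, although AT5G10440 was higher within each one, by 0.15 ± 0.03. The steps were not tested one by one, since an exact sign-flip permutation test of a single step over 3 libraries cannot give a p below 0.25. The 2 steps next to AT4G34160 are part of the limma comparison over all genes.

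Each member was also compared with CYCD3;1 (AT4G34160) within libraries, with limma fitted over the 17677 other nuclear genes that averaged 1 FPKM or more and Benjamini-Hochberg adjustment over all of them. All 8 members that entered the test differed from AT4G34160, and so did 95.4% of the genes tested. AT1G70210 and AT5G67260 were the 2 higher ones, where 26.4% of all genes were higher, and the other 6 were lower, where 69.0% of all genes were lower. The log2(FPKM + 1) of AT5G67260 exceeded that of AT4G34160 by 0.85 (SE 0.059, adjusted p = 8.1e-07) and the value of AT1G70210 exceeded it by 0.30 (SE 0.059, adjusted p = 0.00100), each in 3 of 3 libraries. The difference from AT4G34160 was -0.84 for AT3G50070 (SE 0.053, adjusted p = 4.4e-07) and -1.12 for AT2G22490 (SE 0.056, adjusted p = 8.1e-08). It was -2.32 for AT4G37630, -2.58 for AT5G65420, -2.92 for AT5G10440 and -3.07 for AT4G03270, the largest of their adjusted p-values from limma being 8.4e-09, negative in 3 of 3 libraries each. AT5G02110 was below the filter and was not tested. All tests share the values of AT4G34160, so their p-values are not independent. Their SE draws on the spread of all genes tested. The SD of the differences themselves was 0.14 for AT1G70210 (SE 0.059) and 0.05 for AT4G03270 (SE 0.086).

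**Figure D2:**
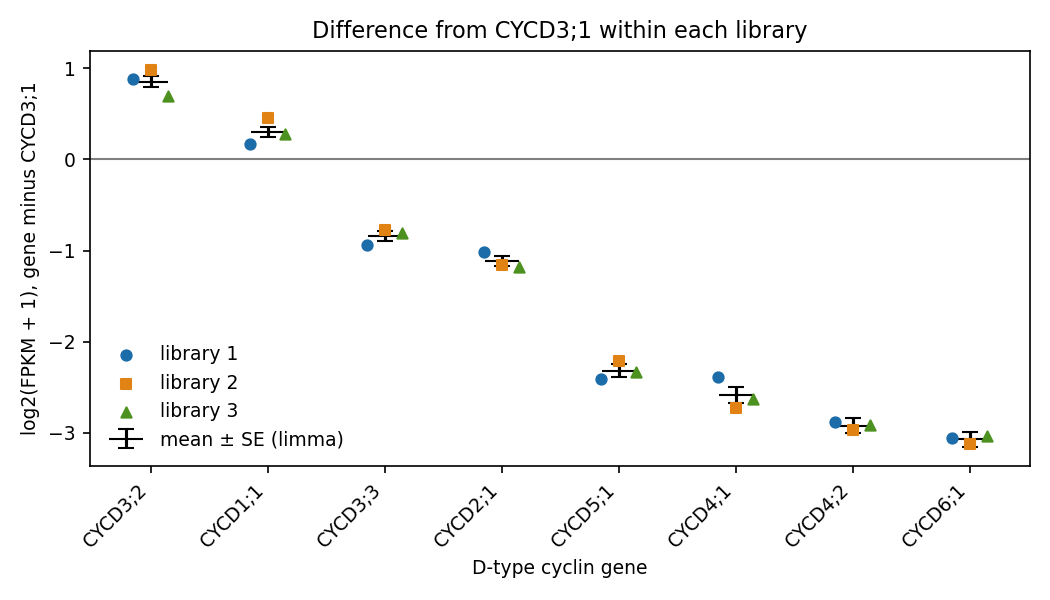
Difference of each tested D-type cyclin from CYCD3;1 (AT4G34160) on the log2(FPKM + 1) scale in the 3 wild-type libraries. Points are libraries and black bars are the limma mean with its SE, and all libraries of CYCD3;2 (AT5G67260) and CYCD1;1 (AT1G70210) lie above 0 and all libraries of the other 6 genes below it.

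The spread of the members between libraries was near that of all genes. Of the 9 members that averaged 1 FPKM or more, 0 had their highest and lowest library more than 1 apart on the log2(FPKM + 1) scale. Of all nuclear genes averaging 1 FPKM or more, 0.651% did. The median distance was 0.17 for the 9 members at that level, against 0.16 for all 17678 genes. The widest was that of AT5G65420, at 0.39, and the narrowest among the 9 that of AT4G34160, at 0.08. AT5G02110 is too low for this scale to show its spread, and its highest library was 2.08 times its lowest, with a coefficient of variation of 35.0%, the largest of the 10 members. Library 1 was highest for AT2G22490 and AT5G65420, library 2 for AT5G67260, AT1G70210, AT4G37630 and AT5G02110, and library 3 for AT4G34160, AT3G50070, AT5G10440 and AT4G03270. Over all 17678 genes, library 1 was highest for 35.0%, library 2 for 25.9% and library 3 for 39.1%, so a scatter over the libraries is not particular to the members.

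The files list more than 1 transcript form for 3 members. CYCD5;1 (AT4G37630) was split evenly between its forms: form 1 (AT4G37630.1) had 1.27, 1.37 and 1.52 FPKM and form 2 (AT4G37630.2) had 1.27, 1.55 and 1.31. Form 1 held 50.2% ± 3.38 of the FPKM of the gene (SD, n = 3), and neither form was higher in every library. In TAIR10.1, form 1 has 323 codons. Form 2 starts an earlier exon 6 bases later and keeps an intron of 81 bases, in which its reading frame ends after 262 codons. Both transcript ends also differ between the forms, so their split is not a measure of the kept intron alone. A form 3 of TAIR10.1, which has no value here, keeps the same intron. The sequence at this intron is shown because the coding sequences of the forms end differently from there on, with the stop codon of form 2 in capitals.
AT4G37630 (chr4:17680505-17680615, plus strand): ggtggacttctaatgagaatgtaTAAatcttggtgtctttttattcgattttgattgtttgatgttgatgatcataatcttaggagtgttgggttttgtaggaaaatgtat

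In CYCD2;1 (AT2G22490), form 1 held 88.9%, 96.0% and 92.6% of the FPKM in libraries 1, 2 and 3, and form 2 had 0.918, 0.287 and 0.552 FPKM. In TAIR10.1 the coding sequences of these forms differ by 3 bases at the last splice acceptor, where form 2 (362 codons) keeps the capitals below and form 1 (361 codons) does not. The forms also differ at both transcript ends in the annotation.
AT2G22490 (chr2:9554397-9554439, minus strand): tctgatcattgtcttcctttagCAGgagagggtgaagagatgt

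In CYCD4;1 (AT5G65420), form 1 (308 codons) had 1.83, 1.74 and 1.54 FPKM, and form 2, which has another end and 242 codons, had 0.778, 0 and 0.570. Form 3, with an extra exon, was listed at 0 in each library. The low value of AT5G65420 in library 2 thus came with a value of 0 for form 2, while form 1 had 1.70 ± 0.145 FPKM and the gene 2.15 ± 0.432 (SD, n = 3). An exact 0 in such a file can be a failed estimate. The deposited identifiers match these models by name, and whether the authors' annotation held the same exons is not given in the sources used here.

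**Figure D3:**
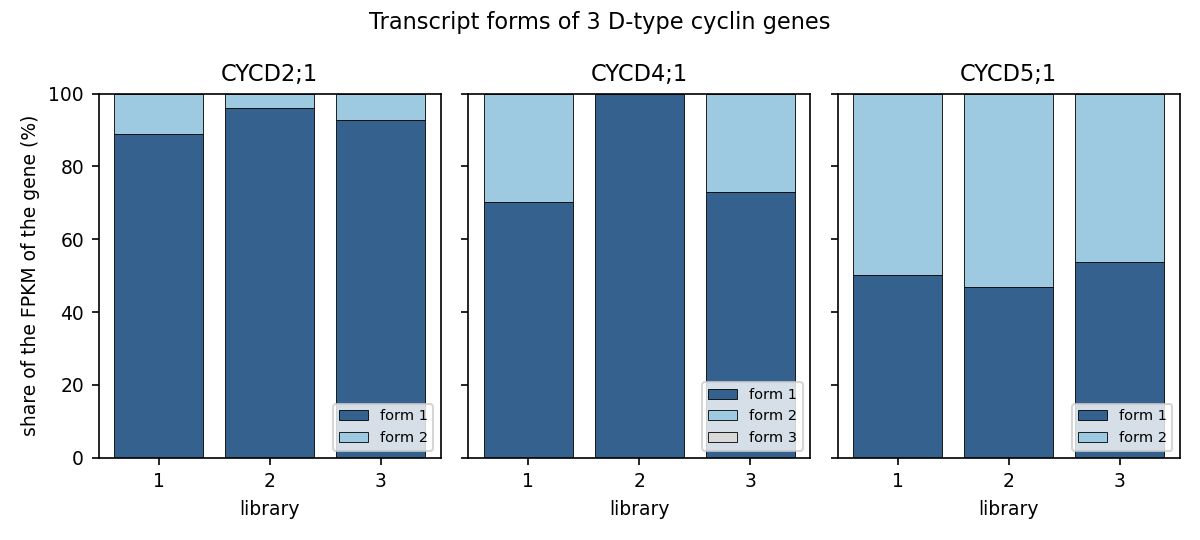
Share of the FPKM of AT2G22490, AT5G65420 and AT4G37630 (percent) held by each transcript form in the 3 libraries. Form 1 holds 88.9% to 96.0% of AT2G22490 and 46.9% to 53.7% of AT4G37630, and form 2 of AT5G65420 is absent from the bar of library 2, where it is listed at 0.

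The partners and targets of D-type cyclins were set beside them in 7 lists with 80 genes. Of these genes, 73 entered the comparison with AT4G34160, and 8 were called higher, 64 lower and 1 neither, beside 26.4% higher and 69.0% lower of all genes tested. The counts of calls in each list are to be read against these shares. The D-type cyclins had a median of 5.21 FPKM, where all nuclear genes had a median of 3.75. The 10 A-type cyclins, of S phase to mitosis, had a median of 2.08 FPKM, and the 9 B-type cyclins, of mitosis, 3.12. All 8 A-type and 7 B-type cyclins tested were called lower than AT4G34160, as were 69.0% of all genes. The highest A-type genes were CYCA3;2 at 7.57 ± 0.782 and CYCA1;1 at 5.91 ± 0.403 FPKM, and CYCA3;3 was listed at 0 in all libraries. The highest B-type genes were CYCB1;2 at 9.19 ± 0.633 and CYCB1;4 at 5.65 ± 0.435, and CYCB3;1 was lowest at 0.886 ± 0.210. A second match at 90% identity or more covers 46.0% of the CYCB1;2 transcript, which leaves the split of fragments between the copies uncertain. The summed FPKM of the 10 D-type cyclins was 3.16 ± 0.044 times that of the A-type list and 3.00 ± 0.051 times that of the B-type list (SD, n = 3).

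The kinase partner CDC2 had 34.5, 36.6 and 37.6 FPKM, a mean of 36.2 ± 1.55. The summed D-type cyclins reached 2.80, 2.73 and 2.56 times its FPKM. CKS1, a docking subunit of these kinases, led the list of CDKs and their activators at 36.6 ± 1.90 FPKM. The inhibitory kinase WEE1 was lowest at 1.16 ± 0.381. Of this list, 11 of 12 genes had 1 FPKM or more in every library, as did 63.2% of all nuclear genes. In this list 3 genes were called higher and 9 lower than AT4G34160, and of the 9 CDK inhibitors 2 were called higher and 7 lower. Both splits lie near those of all genes tested, at 26.4% higher and 69.0% lower. SMR1 (LGO in the gene table), which promotes giant endoreduplicated cells, had 38.4 ± 0.540 FPKM, KRP4 19.3 ± 0.177 and KRP3 (ICK6 in the gene table) 1.53 ± 0.080. The summed FPKM of the D-type cyclins was 1.12, 1.17 and 1.07 times that of these 9 inhibitors.

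Downstream, RBR1 had 14.3, 15.1 and 14.9 FPKM, a mean of 14.8 ± 0.408, below AT4G34160 and above AT3G50070 in each library. The other members of its list were the E2F, DP and DEL factors, from DPB at 7.15 ± 0.158 FPKM down to DEL1 at 1.27 ± 0.309, and all 9 genes of the list were called lower than AT4G34160, as were 69.0% of all genes. Of the 19 S-phase genes, many known as targets of E2F, 17 reached 1 FPKM in each library, as did 63.2% of all nuclear genes. The ribonucleotide reductase genes TSO2 and RNR1 were highest, at 36.9 ± 3.03 and 19.98 ± 1.504 FPKM. They were the 2 called higher than AT4G34160 and the other 15 tested were called lower, beside 26.4% and 69.0% of all genes. ORC1A, a subunit of the origin recognition complex, was lowest at 0.327 ± 0.028. Its transcript matches another place in the genome at 89.6% over 2459 bases, just under the 90% limit, so the split of fragments is uncertain.

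Upstream, the cytokinin receptor AHK3 (HK3 in the gene table) had 40.2 ± 0.765 FPKM and the response regulator ARR1 (RR1) 18.1 ± 1.16. ARR1 was the 1 gene of the lists not called different from AT4G34160, where 95.4% of all genes tested were called. SHR and SCR, root factors known to activate AT4G03270, had 7.06 ± 0.718 and 6.53 ± 0.435 FPKM, each above AT4G03270 in all 3 libraries. Of the stomatal lineage factors, FAMA (FMA in the gene table), which ends the divisions of the lineage, had 9.06 ± 0.572 FPKM. SPCH, the factor that starts the lineage, had 1.53 ± 0.310 and MUTE, known to raise AT4G37630, was the lowest of the list at 0.555 ± 0.234. Over the 80 genes, those nearest to AT4G34160 were ARR1, KRP4 and RNR1, whose log2(FPKM + 1) lay within 0.11, 0.17 and 0.24 of it in all 3 libraries. Likeness over 3 libraries of 1 group measures only a similar level.

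**Figure D4:**
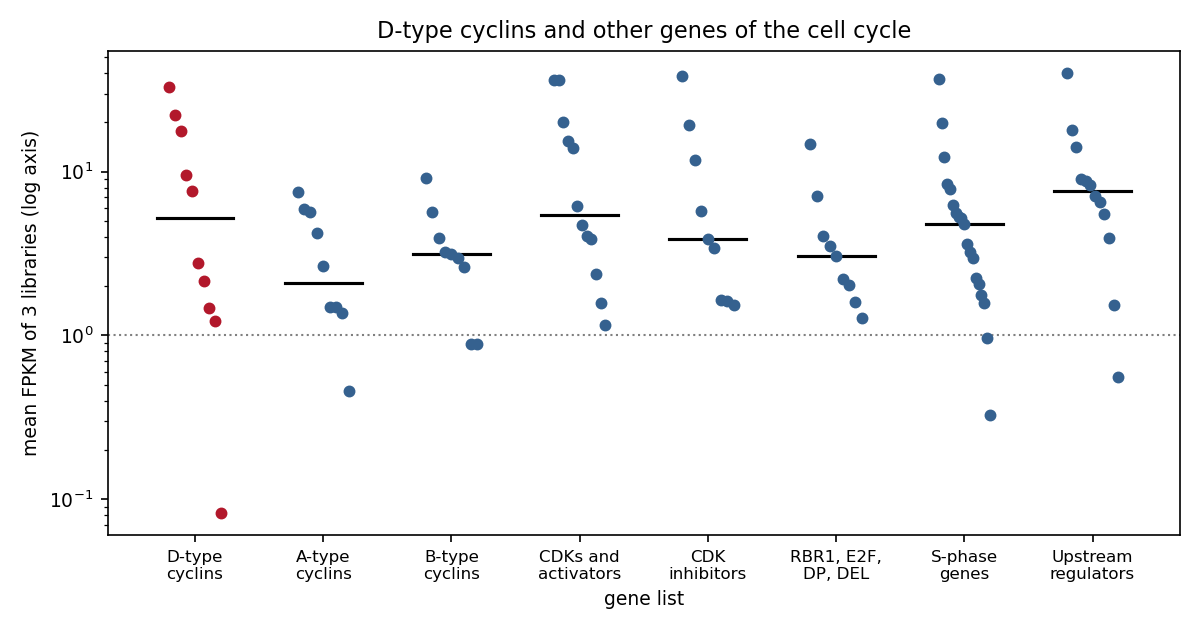
Mean FPKM over 3 libraries (log axis) of the D-type cyclins (red) and of the genes of 7 other cell cycle and regulator lists (blue). Each point is a gene, black bars are list medians, the dotted line is at 1 FPKM, and CYCA3;3, listed at 0, is not drawn, and the D-type median is 5.21, against 2.08 for A-type and 3.12 for B-type cyclins.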

How the data were processed

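Total RNA of 3 wild-type seedling libraries, depleted of ribosomal RNA, had been made into strand-specific libraries and sequenced on an Illumina instrument, per the labels' protocols. The deposited files hold 1 FPKM value per transcript for 36172 transcripts. The unit is not in the file headers. It was inferred from Cufflinks 2.1.1 in the submitters' processing notes, which also name TopHat2 2.0.9 and TAIR10, and from sums that differ between libraries. Which annotation, filters and scaling the authors used is not given in the sources used here, and the depth is unknown.

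From these values, 35337 transcripts with a locus identifier were summed to 27374 loci. The other 835 entered no comparison. The 10 D-type cyclins and the 102 genes of all lists matched the RefSeq gene table of TAIR10.1, an assembly that differs in name from the authors' build. All coordinates are those of TAIR10.1. Sequences were cut from its genome with Biopython 1.88, and near copies were searched with blastn 2.17.0.

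Genes were compared with CYCD3;1 with limma 3.58.1 (intercept model, empirical Bayes with trend) on log2(FPKM + 1) within libraries. Genes had a mean of at least 1 FPKM, and the threshold was an adjusted p of 0.05 over all genes. Tested on simulated data, it called equal genes more often than its nominal rate, so its p-values may be too small. Alternatives were another pseudocount, filter, scaling, variance estimate and transcript choice, and leaving out each library.

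Members and lists were chosen with earlier results of these data known. Beyond all members, the text names the 2 highest and the lowest gene of each list, fixed partners and upstream factors, and the 3 genes nearest to CYCD3;1. The marker genes, overlapping genes and flanking genes are named outside this rule.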

Additional observations from a re-analysis of the deposited data

How the results depend on the processing

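The 8 tested differences from CYCD3;1 kept direction and call under the alternatives that could test them. In these, 15114 of 15917 to 21866 of 22674 genes tested were called, so a kept call alone says little about the members. CYCD7;1 was called lower only without a filter. Scaling FPKM to TPM, a fixed sum per library, multiplied every level by 0.484 to 0.511 (the mean of CYCD3;2 became 16.4 in place of 32.9). It left CYCD4;2 and CYCD6;1 under the filter of the test and 6 of 10 members at 1 or more in every library, in place of 9. Genes with libraries more than 1 apart numbered 57 with that scaling, 303 with a pseudocount of 0.1 and 47 to 75 without 1 library, in place of 115, and no member was among them in any setting, where the pseudocount limits what CYCD7;1 can show. With the highest transcript in place of the sum, 3 members changed rank (CYCD5;1 fell behind CYCD4;1 and CYCD4;2). The number of the 80 list genes at 1 FPKM or more in every library was 72, where 63.2% of all nuclear genes reached that level. It was 71 with the highest transcript and 72 to 73 without 1 library. No paired analysis was possible because replicate numbers pair samples across groups and there is 1 group, while genes were compared within libraries throughout. With depth unknown, values near 0 have no counting interval.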

Other observations

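Of 19 flanking genes with values, 13 had a higher mean FPKM than the D-type cyclin beside them and 6 a lower one. Flanking genes are neighbours by start position, and AT1G70209, AT4G34150, AT5G67265 and AT4G03260 among them overlap the locus of the member. The same count was not made over all genes, so it is not read as a trait of the members. The genes named with values below were chosen after their values were seen, mostly for being high. CYCD7;1, at 0.0824 FPKM, lies on chromosome 5 between UNE18 and OHP, 637 and 424 bases away in TAIR10.1, which had 7.19 ± 0.835 and 127 ± 6.61 FPKM (SD, n = 3). CYCD4;2, at 1.48 FPKM, lies 1299 bases from GRF6, a gene of a 14-3-3 protein, at 156 ± 6.72 FPKM. CYCD4;1 lies 4129 bases from GRF8, of the same family, at 96.2 ± 1.22. CYCD6;1 lies 6284 bases from PETC, which encodes a Rieske protein of photosynthesis, at 507 ± 21.2 FPKM. CYCD1;1, at 22.1 FPKM, stands above its flanking gene AT1G70200, at 13.9 ± 0.0079 FPKM. The gene next by start position, AT1G70209, was listed at 0 and lies within the AT1G70210 locus, where 144 exon bases overlap on opposite strands. CYCD3;2, at 32.9 FPKM, stands above its flanking gene SKIP2, an F-box protein gene 2235 bases away, at 8.83 ± 0.912.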
